A study of Mus musculus with 24 samples.

Results

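Subcutaneous fat of control mice of the C/EBPα line was compared after 3 days on high fat diet and after 3 days on chow. The comparison rests on 6 of the 24 arrays of the series, chosen by their titles: 3 arrays of controls on high fat diet and 3 arrays of controls on chow. The mice of both groups were labelled C57BL/6J and 10 weeks old, both diets carried doxycycline, and the controls were littermates of mice with the genotype Adn-C/EBPα-/-, labelled as lacking the transcription factor C/EBPα in a study of mature adipocytes. Controls carry the knockout's name in their genotype label, so groups were taken from titles, and the alleles that the controls carry are not stated. Whether each array stands for its own animal is not stated either, so p-values reflect only how far these arrays spread, and that spread may be technical. Further groups of 3 arrays are set beside the comparison. These are the controls of the PPARγ line (Adn-PPARγ-/-) after 3 days on doxycycline chow at 10 weeks, the C/EBPα knockouts after 3 days on each diet at 10 weeks, and C/EBPα-line controls after 1 month on high fat diet at 14 weeks.

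White adipocytes store fatty acids as triglyceride, taking them from circulating lipoproteins or making them from glucose. Fat in the diet supplies fatty acids ready made, and in rodents it is known to turn down the transcription of the enzymes that make them. Growing fat depots enlarge their adipocytes, rebuild collagen around them and release hormones, adipokines and acute phase proteins. Adipocytes also carry a circadian clock, respond to glucocorticoids, and in the beige form burn fatty acids through the uncoupling protein Ucp1.

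Each array reported the brightness of biotin-labelled cRNA on an Illumina BeadChip, which is given here as log2 signal after background correction. The knockout and control arrays of 1 line, diet and time had been normalized together by the authors, in 4 sets of 6 arrays. The high fat and chow arrays therefore lie in different sets. The median deposited intensity was 110.2 on high fat diet and 150.5 on chow. After a common normalization 58.2% of the probes of each array were brighter than background. That normalization gives all 6 arrays the same distribution, so the equal share is fixed in advance and does not compare their quality. Pearson's r across genes was at least 0.989 within a group and at most 0.973 between an array on chow and an array on high fat diet. The number of arrays limits the precision. The 14 tested adipocyte markers had a mean log2 signal between 11.35 and 11.43 in the chow arrays and between 11.14 and 11.24 in the high fat arrays. Of these markers 3 were higher (21.4%) and 3 lower (21.4%), near the 23.4% and 17.8% of all genes. Their median log2 difference was -0.004, and the lowest, Fabp4, was at -3.94. In whole tissue, fewer cells of a type and less RNA per cell cannot be told apart.

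Diet and array set cannot be told apart in this comparison. Of 13394 genes tested, 5519 (41.2%) were called at an adjusted p under 0.05, 3136 of them (23.4%) higher and 2383 (17.8%) lower on high fat diet. The same call between the chow controls of both lines, which differ in line and array set and not in diet, was made for 4691 of 13387 genes (35.0%). Large changes in bright genes, at least 2-fold with a mean signal above the median gene, numbered 72 higher (0.538%) and 335 lower (2.50%) on high fat diet. The chow groups differed from each other by the same rule in 94 genes that were higher (0.702%) and 217 that were lower (1.62%) in the PPARγ line. The high fat arrays differed from the PPARγ-line chow arrays in 3038 of 12571 genes (24.2%), 44 of them bright and at least 2-fold higher (0.350%) and 60 lower (0.477%). The difference of the same high fat arrays from the PPARγ-line chow arrays, which lie in yet another set, is therefore set beside the genes described below. In the deposited values, without normalization between sets, the median gene was at -0.70, and signs in those values are to be read against that shift.

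**Figure D1:**
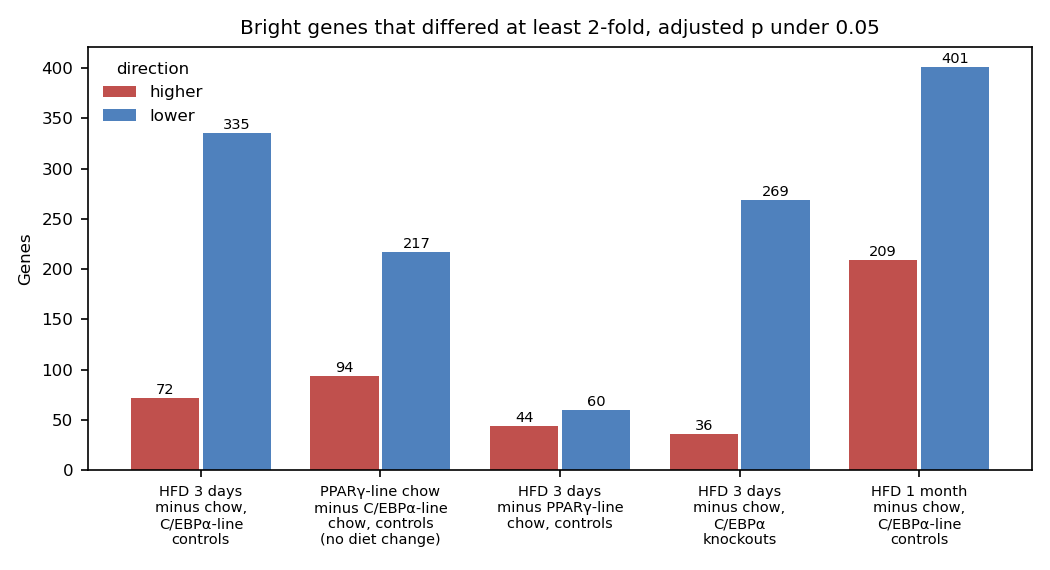
The bars give the number of bright genes that were at least 2-fold higher or lower with an adjusted p under 0.05 (vertical axis, genes) in 5 comparisons of 3 against 3 arrays (horizontal axis). The 217 genes that were lower between chow groups, with no change of diet, stand beside the 335 that were lower on high fat diet.

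Over the 335 bright genes that were lower, the median log2 difference was -1.37 in the main comparison, -1.06 between the chow groups and -0.36 against the PPARγ-line chow arrays. Over the 72 that were higher, the medians were 1.13, 0.70 and 0.45. These comparisons share arrays, so their medians are not independent. Among all genes the 3 high fat arrays and the 3 chow arrays did not overlap for 7207 (53.8%). In 186 of the 335 lower genes and 46 of the 72 higher genes, the 3 high fat arrays lay beyond all 6 chow arrays, against 1289 (9.62%) and 1923 (14.4%) of all genes tested. The lists were chosen on 3 of these 6 chow arrays, so these shares are a description. When the 6 chow arrays were taken as a single group with the array set as a random block, limma called no gene, with 1780 genes (13.3%) at an unadjusted p under 0.05 and a lowest adjusted p of 0.161.

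The genes that stood farthest from both chow groups included a malic enzyme, a cytochrome P450 and a proline dehydrogenase, all lower, and an antitrypsin gene, a cytokine receptor and the uncoupling protein Ucp1, all higher. Cyp2e1, a cytochrome P450 that oxidises ethanol and fatty acids, had log2 signals of 14.37, 14.21 and 14.61 in the chow arrays and 12.62, 12.76 and 12.16 in the high fat arrays. All high fat arrays lay well under all chow arrays. The difference was -1.88 ± 0.18 (limma standard error, n = 3 arrays per group, adjusted p = 0.000299), and it was -2.19 against the PPARγ-line chow arrays. Between the chow groups Cyp2e1 differed by 0.18.

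Me1, the malic enzyme that supplies NADPH for fatty acid synthesis, read 11.25, 11.23 and 10.90 on chow and 9.23, 9.04 and 8.90 on high fat diet. The groups did not overlap, and the difference was -2.07 ± 0.14 (adjusted p = 8.32e-05). Against the PPARγ-line chow arrays it was -1.34. Prodh, which starts the breakdown of proline, read 10.52, 10.42 and 10.71 on chow and 8.79, 9.13 and 8.80 on high fat diet. Its difference was -1.64 ± 0.13 (adjusted p = 0.000164), or -1.34 against the PPARγ-line chow arrays. A dimmer Prodh probe was lower by the same test, at -1.01, and the dimmest differed by 0.14.

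Serpina1b encodes an antitrypsin, a protease inhibitor secreted by the liver. It read 4.99, 5.59 and 7.83 on chow and 8.86, 9.67 and 9.38 on high fat diet. The high fat arrays lay above the chow arrays, which were widely spread among themselves. The difference was 3.16 ± 0.65 (adjusted p = 0.00774), and it was 2.38 against the PPARγ-line chow arrays. The 2 other kept probes of the gene differed by 2.62 and 2.96. The mouse antitrypsin genes are near copies of each other, so the member behind the signal is uncertain.

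Tnfrsf12a, the receptor of the cytokine TWEAK, read 7.15, 7.76 and 7.19 on chow and 8.80, 9.34 and 10.15 on high fat diet. Every high fat array was above every chow array. The difference was 2.06 ± 0.33 (adjusted p = 0.00266), and 2.57 against the PPARγ-line chow arrays. Pmepa1, a brake on TGF-β signalling that TGF-β itself induces, read between 8.47 and 8.78 on chow and between 9.80 and 9.91 on high fat diet. Its difference was 1.19 ± 0.11 (adjusted p = 0.000298), its second probe gave 1.18, and the distance from the PPARγ-line chow arrays was 1.30. Krt79, a keratin, was higher by 1.21 and by 1.24 against the PPARγ line, and Dnmt3l, a cofactor of DNA methyltransferases, by 1.19 and 1.11.

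Among the other lower genes of this kind were Notch1, a receptor of cell-to-cell signalling, and Mfng, an enzyme that adds sugars to Notch receptors. Notch1 differed by -1.47 and by -1.26 against the PPARγ-line chow arrays. Mfng differed by -1.56 and -1.06, and a second, dimmer Mfng probe by 0.32 without a call. Mycl, a transcription factor of the MYC family, differed by -1.08 and -1.89, and C2cd2l, which moves phospholipid at membrane contacts, by -1.25 and -1.31. Probes disagreed for some of these genes: the second probe of Slu7, a splicing factor, differed by -0.27 where the brightest gave 1.21. The 5 probes of Dock9, an activator of the small GTPase Cdc42, ranged from -2.02 to 0.25. Dynll2, a dynein light chain, was higher by 2.16 and 1.17 at its brighter probe, with -0.33 at the other. Ndufb10, a subunit of respiratory complex I, differed by -1.15 and -1.32 at its brighter probe. Its dimmer probe differed by -0.998, with -0.05 against the PPARγ-line chow arrays and -0.95 between the chow groups. The remaining 3 genes of this kind were Pnldc1, an exonuclease of small RNAs, at 1.11 and 1.18, the predicted gene Gm7854 at 1.48 and 2.87, and the pseudogene Pisd-ps3 at -1.32 and -1.99. A dimmer probe of Pisd-ps3 differed by -0.60 and 0.07.

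**Figure D2:**
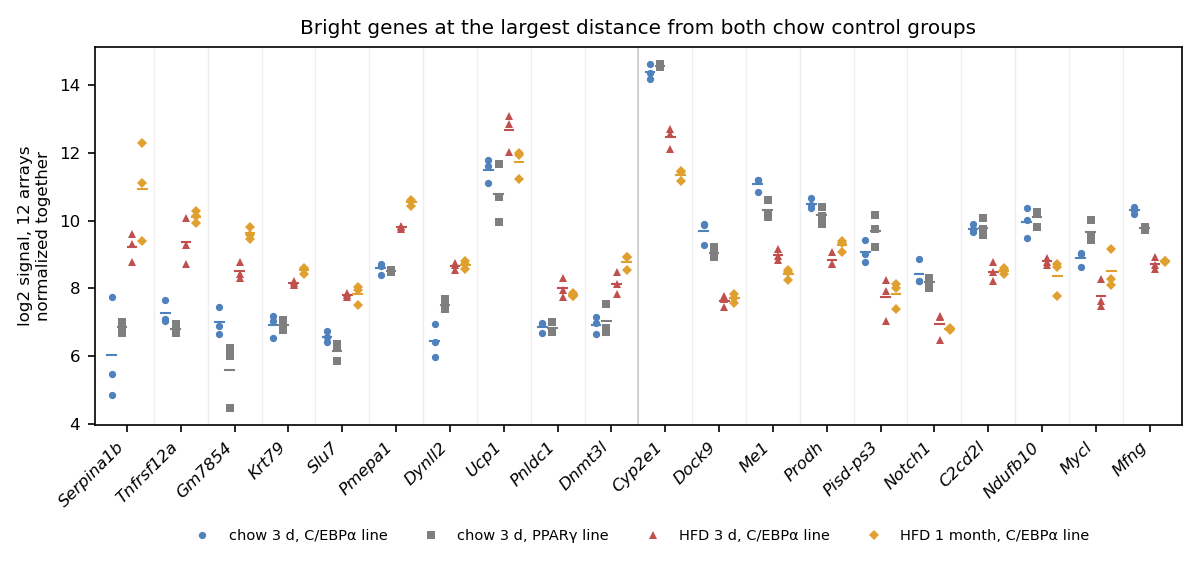
Points are the log2 signals (vertical axis) of the 12 control arrays, normalized together, for the 20 bright genes farthest from both chow groups (horizontal axis, 10 higher on the left and 10 lower on the right), and short lines are group means of 3 arrays. The high fat arrays at 3 days lie beyond all 6 chow arrays for each gene shown, and the genes were chosen for this distance.

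The 15 bright genes with the largest lower values on high fat diet, all without overlap, also differed between the chow groups, by -3.59 to -1.40. The Fabp4 probe, for the fatty acid binding protein of adipocytes, read 9.71, 9.81 and 10.04 on chow and 5.92, 5.89 and 5.92 on high fat diet. The difference of -3.94 ± 0.11 (adjusted p = 7.83e-06) stood beside -3.59 between the chow groups and -0.35 against the PPARγ-line chow arrays. Nampt, which makes the NAD precursor nicotinamide mononucleotide, differed by -2.55, with -2.41 between the chow groups and -0.14 against the PPARγ line. The ATP synthase subunit Atp5a1 differed by -2.73 at its brighter probe, with -2.30 between the chow groups and -0.44 against the PPARγ line, and by 0.08 at its other kept probe.

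Among the largest higher genes, Gpx8, a peroxidase of the endoplasmic reticulum, read 10.41, 9.49 and 10.15 on chow and 12.01, 12.12 and 11.92 on high fat diet. The groups did not overlap. Gpx8 was higher by 2.00 ± 0.22 (adjusted p = 0.000562), by 2.46 between the chow groups, and differed by -0.50 from the PPARγ-line chow arrays. Spon2, a secreted matrix protein, was higher by 1.95, with 1.65 between the chow groups and 0.31 against the PPARγ line, the latter without a call. Il6st, the shared signalling chain of the interleukin-6 receptor family, was at 1.52, with 2.28 between the chow groups and -0.76 against the PPARγ line. Of the bright genes with at least 2-fold differences, 149 lower and 42 higher genes had further kept probes. Another probe was called the same way in 61 and 25 of them, and the opposite way in 34 and 10.

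Of 23 tested genes of fatty acid synthesis and its regulators, 4 were higher (17.4%) and 5 lower (21.7%) on high fat diet, near the 23.4% and 17.8% of all genes. The lower genes numbered 3 without the first high fat array and 9 without the third, and the higher genes 1 without the second array of either diet and 2 without the third chow array. The median log2 difference was -0.26, beside 0.07 over all genes. Fasn, the fatty acid synthase, read 9.35, 9.38 and 8.63 on chow and 8.06, 7.63 and 8.45 on high fat diet. The groups lay close together at their edges. Fasn differed by -1.08 ± 0.26 (adjusted p = 0.0144), and by -0.50 from the PPARγ-line chow arrays without a call (adjusted p = 0.16).

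Tkt, the transketolase of the pentose phosphate pathway, and Fads1, the delta-5 desaturase, joined Me1 below all 6 chow arrays. Of the 23 genes, 3 lay below all 6 chow arrays and 1 above, beside 9.62% and 14.4% of all genes. Tkt differed by -0.53 and by -0.61 against the PPARγ line, and Fads1 by -0.41 and -0.40. The dimmer Tkt probes differed by -0.45, -0.43 and -0.39 without calls, and by -0.09, -0.17 and -0.18 against the PPARγ line. Over the mean of its probes Tkt lost its call. Scaled to the median in place of quantile normalization, Tkt and Fads1 were at -0.25 and -0.18 without a call. The desaturase Scd2 was higher, by 0.86 and by 1.08 against the PPARγ line. Pnpla3, a lipid droplet protein induced by carbohydrate, differed by -0.58 but by 0.18 from the PPARγ-line chow arrays, without a call there, and by -0.33 without a call after scaling to the median.

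Triglyceride assembly had 4 higher (30.8%) and 3 lower (23.1%) genes of 13 tested, beside 23.4% and 17.8% of all genes. Without the third chow array 2 were higher. Agpat3, an acyltransferase, differed by -1.13 and by -0.51 against the PPARγ line. The acyltransferase Gpat3 and Pck1, an enzyme of glycerol formation, changed sides between chow groups: Gpat3 differed by 1.17 and -0.44, and Pck1 by -1.34 and 0.60, the last without a call.

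In cholesterol synthesis and sterol sensing, 5 of 19 tested genes were higher (26.3%) and 2 lower (10.5%), beside 23.4% and 17.8% of all genes, with a median of 0.27, or 0.14 against the PPARγ-line chow arrays. The higher genes numbered 2 without the third array of either diet and 3 without the second of either, and the median was 0.12 without the third high fat array. Nsdhl, which removes a methyl group from sterol precursors, read 9.12, 8.70 and 8.84 on chow and 9.71, 9.80 and 10.11 on high fat diet. The arrays did not overlap. The difference was 0.98 ± 0.15 (adjusted p = 0.00225) and 0.99 against the PPARγ line, and the other kept probes of Nsdhl differed by 1.11, 0.19 and 0.27. Fdps, the farnesyl diphosphate synthase, was higher by 0.73, with 0.44 against the PPARγ line without a call and -0.03 in the deposited values. Idi1, the enzyme before it, was lower by 1.02 on the log2 scale, a dim gene with no difference beyond its error from the PPARγ-line chow arrays. Stard4, a cholesterol carrier, differed by -0.40 and -0.68.

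Fatty acid uptake genes and other PPAR-responsive genes had 5 higher (22.7%) and 4 lower (18.2%) members of 22, and fatty acid oxidation had 7 higher (28%) and 5 lower (20%) of 25. Both lie near the 23.4% and 17.8% of all genes. Without the third array of either diet, 4 oxidation genes were higher. Of the uptake genes, 2 were lower without the second array of either diet. Cd36, the fatty acid transporter, differed by -2.07, with -1.86 between the chow groups and -0.21 against the PPARγ line. Cidec, which enlarges lipid droplets, differed by -0.61 and by -0.83 against the PPARγ line. Its call was lost after scaling to the median (-0.33), without the second high fat array (-0.48) and without the second chow array (-0.56). Ehhadh, a peroxisomal enzyme of oxidation, differed by -1.57 and -0.50, the latter without a call, and Hadhb, a subunit of the mitochondrial trifunctional protein, by -1.04 and 0.55, the latter without a call. The median of the oxidation genes was 0.09, and 0.30 against the PPARγ line.

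Ucp1, which uncouples respiration in brown and beige adipocytes, read 11.67, 11.14 and 11.85 on chow and 13.15, 12.08 and 12.90 on high fat diet. The lowest high fat array was just above the highest chow array. The difference was 1.15 ± 0.29 (adjusted p = 0.0168) and 1.92 against the PPARγ line. The call was lost without the third high fat array (1.05), without the second chow array (0.955), with a robust variance trend (1.15) and in the deposited values (0.487). Cox7a1 and Cox8b, cytochrome oxidase subunits of oxidative tissues, were higher by 0.77 and 0.38, and by 1.56 and 0.82 against the PPARγ line. Cox8b was at -0.10 in the deposited values and at 0.31 without a call when the third high fat array was left out, and Cox7a1 at 0.65 without a call when the second chow array was. Of 14 tested brown and beige fat genes, 4 were higher (28.6%) and 3 lower (21.4%), beside 23.4% and 17.8% of all genes, with medians of 0.03, 0.65 against the PPARγ line and -0.63 between the chow groups. Without the third high fat array 2 were higher, and without the second chow array 1.

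Secreted products of fat and genes of fat expansion were mostly higher on high fat diet. Of 23 tested, 13 were higher (56.5%) and 2 lower (8.70%), beside 23.4% and 17.8% of all genes, and the median was 0.56, or 0.26 against the PPARγ line. Orm1, an acute phase glycoprotein, read 11.92, 12.19 and 12.40 on chow and 13.32, 13.49 and 13.34 on high fat diet. All high fat arrays lay above all chow arrays. The difference was 1.21 ± 0.14 (adjusted p = 0.000596), and 0.88 against the PPARγ line.

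Npr3, the clearance receptor of natriuretic peptides, read 9.17, 10.00 and 10.25 on chow and 11.20, 11.47 and 11.62 on high fat diet. It was higher by 1.62 ± 0.27 (adjusted p = 0.0031) and by 0.96 against the PPARγ line, and its 5 other kept probes ranged from -0.54 to 1.64. Sncg, a synuclein abundant in adipocytes, was higher by 0.77 and 1.15, with a second probe at 0.09. The siderophore-binding protein Lcn2 was higher by 0.81 and 1.54, and the hormone Fgf21 by 0.84 and 1.32, and they were at -0.10 and -0.002 in the deposited values, above the median gene at -0.70. The 2 lower genes of the list were Nampt and Rbp4, the retinol carrier, at -2.19 with -1.74 between the chow groups and -0.45 against the PPARγ line, the last without a call. Leptin (Lep), named here outside the rule for named genes, read between 13.45 and 13.77 on chow and between 13.68 and 14.13 on high fat diet, and the difference of 0.33 was not called (adjusted p = 0.0956). Against the PPARγ line it was 0.26.

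Extracellular matrix genes were more often higher than lower. Of 36 tested, 17 were higher (47.2%) and 7 lower (19.4%), beside 23.4% and 17.8% of all genes, with medians of 0.34, 0.06 against the PPARγ line and 0.22 between the chow groups. Lox, which crosslinks collagen, read 9.47, 9.65 and 9.90 on chow and 10.84, 10.85 and 10.69 on high fat diet. The groups were far apart. Lox was higher by 1.12 ± 0.13 (adjusted p = 0.000703) and by 0.77 against the PPARγ line. Mfap4, a microfibril protein that was dim on chow, was higher by 2.50 and 1.20, and the basement membrane collagen Col4a2 by 0.87 and 0.46. Col1a1 was higher by 0.96, the same as between the chow groups. Col1a2 differed by -1.93 and -0.69, and Col3a1 by -2.26 and -0.58 at its brighter probe and by 0.47 and -0.55 at the other.

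**Figure D3:**
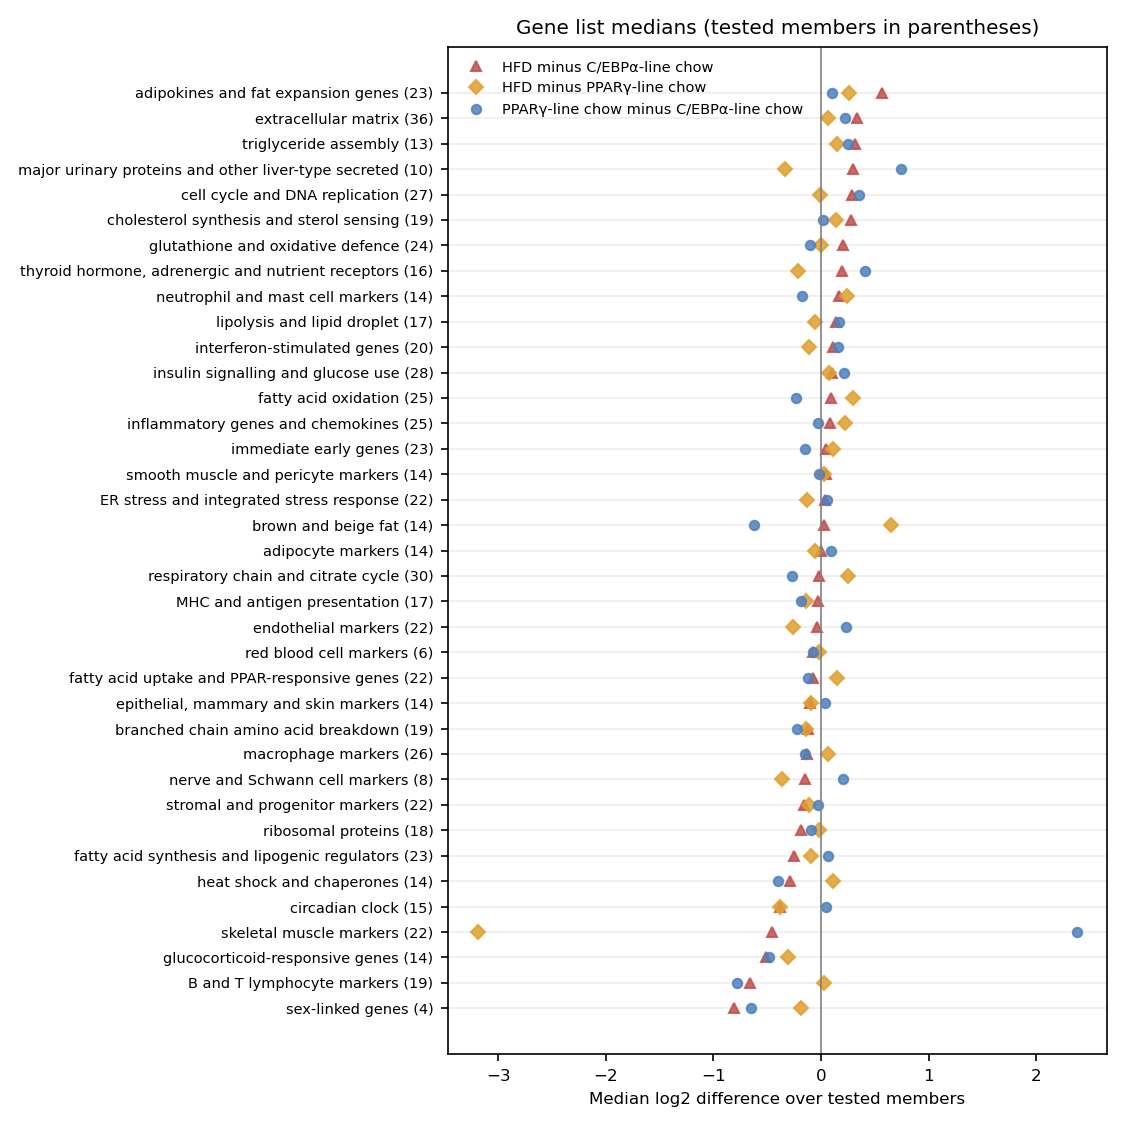
Symbols give the median log2 difference (horizontal axis) over the tested members of each of 37 gene lists (vertical axis) for high fat diet against each chow group and for the chow groups against each other. The adipokine list is highest in the main comparison at 0.56, and the skeletal muscle list lies at 2.38 between the chow groups and at -3.19 for high fat diet against the PPARγ line.

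Glucocorticoid-responsive genes were mostly lower on high fat diet. Of 14 tested, 8 were lower (57.1%) and 2 higher (14.3%), beside 17.8% and 23.4% of all genes, and the median was -0.52, with -0.30 against the PPARγ line and -0.48 between the chow groups. Their mean log2 signal was 9.98, 10.03 and 10.31 in the chow arrays and 9.61, 9.71 and 9.64 in the high fat arrays. The groups did not overlap. The same held for many other lists, ribosomal proteins among them, and for 53.8% of all genes.

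Fkbp5, a chaperone that restrains the glucocorticoid receptor, read 9.34, 9.42 and 10.09 on chow and 8.12, 8.55 and 8.13 on high fat diet. It differed by -1.35 ± 0.22 (adjusted p = 0.00279) and by -0.78 against the PPARγ line. Mt1, a metallothionein, differed by -0.67 and -0.46, the transcription factor Klf9 by -0.58 and -0.42, and the kinase Sgk1 by -0.45 and -0.43. For these 4 genes and for Hif3a, a dim gene of the hypoxia pathway at -1.69 and -1.03, every high fat array lay below all 6 chow arrays. Of the 14 genes, 5 lay below all 6 chow arrays and 2 above, beside 9.62% and 14.4% of all genes. The dimmer Hif3a probes differed by -0.40 and 0.34 without calls, and by -0.20 and 0.06 against the PPARγ line. With scaling to the median, Mt1 and Sgk1 were at -0.30 and -0.24 and were not called. Tsc22d3, known as the leucine zipper induced by glucocorticoids, differed by -0.98 and -0.50 at its brightest probe, and by 0.25 and -0.03 at its other 2 probes. The higher members were Lcn2 and Pdk4, a kinase that holds back pyruvate use, at 0.66 and 1.70 against the PPARγ line. Pdk4 was at -0.03 in the deposited values.

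The sequences before the transcription starts of Mt1 and Sgk1 are shown because both hold the palindrome GNACANNNTGTNC, the letters that the glucocorticoid receptor is known to bind, and that of Per1 because it holds the E-box CACGTG of clock factors. They were taken from RefSeq on GRCm38.p6, 250 bases ending at the start, read 5′ to 3′ on the plus strand, with the match in capitals. Both motifs read the same on either strand. The Sgk1 window also holds an E-box, left in lower case near its first base.
Mt1, chr8:94178839-94179088: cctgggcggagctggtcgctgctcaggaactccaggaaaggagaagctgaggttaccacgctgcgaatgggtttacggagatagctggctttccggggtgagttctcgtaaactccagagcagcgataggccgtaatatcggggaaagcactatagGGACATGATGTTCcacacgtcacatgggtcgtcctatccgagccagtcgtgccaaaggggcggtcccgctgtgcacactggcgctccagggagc
Sgk1, chr10:21993640-21993889: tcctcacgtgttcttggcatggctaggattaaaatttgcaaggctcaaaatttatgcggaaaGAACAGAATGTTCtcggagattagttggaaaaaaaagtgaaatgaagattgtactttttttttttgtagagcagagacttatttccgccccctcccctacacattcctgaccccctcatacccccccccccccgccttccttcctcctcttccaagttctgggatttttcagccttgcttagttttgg
Per1, chr11:69098699-69098948: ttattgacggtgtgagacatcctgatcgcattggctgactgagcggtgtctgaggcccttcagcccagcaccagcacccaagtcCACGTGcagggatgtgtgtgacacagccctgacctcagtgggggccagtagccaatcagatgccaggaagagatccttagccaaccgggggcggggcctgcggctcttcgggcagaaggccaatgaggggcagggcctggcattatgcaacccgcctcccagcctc
The match begins 94 bases before the start in Mt1, 188 bases before 1 of 6 listed starts of Sgk1, and 166 bases before 1 of 2 listed starts of Per1. The palindrome was in windows of 2 of 13 listed glucocorticoid-responsive genes that had a window, and of 119 of 27025 genes in all (0.44%). The palindrome was in none of 12 clock genes with a window (0%). The E-box was in 3 of those 12 clock genes, in 4 of the 13 glucocorticoid-responsive genes and in 6.86% of all genes. The letters are a description of these windows, and no binding was measured.

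Genes of the circadian clock differed in the same arrays. Of 15 tested, 7 were lower (46.7%) and 3 higher (20%), beside 17.8% and 23.4% of all genes, with a median of -0.38 against either chow group and 0.05 between the chow groups. Lists can share members, so these counts and those of the glucocorticoid-responsive list may overlap. Without the second chow array the median was -0.23. Nr1d2, a repressor of the clock, read 9.17, 8.99 and 8.76 on chow and 7.44, 7.16 and 7.12 on high fat diet. The groups were well apart. It differed by -1.73 ± 0.14 (adjusted p = 0.000171) and by -0.77 against the PPARγ line. A second, dimmer Nr1d2 probe differed by -1.28, with -1.32 between the chow groups and -0.01 against the PPARγ line. The output factor Dbp differed by -0.42 and -0.70 and the repressor Per3 by -0.44 and -0.50, with all high fat arrays below all 6 chow arrays. Neither call held in every alternative: Dbp was at -0.13 with scaling to the median, and Per3 at -0.37 without the third chow array. Of the 15 clock genes, 4 lay below all 6 chow arrays and 1 above, beside 9.62% and 14.4% of all genes.

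Per1 and Per2, partner repressors of Per3, differed by -0.77 and -0.89, and by -0.30 and -0.39 against the PPARγ line without a call. Bhlhe40, a repressor that answers to light and hypoxia, differed by -1.58 and by -0.60 without a call. Nr1d1, the paralog of Nr1d2, was higher by 1.00, and by 0.26 against the PPARγ line without a call.

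**Figure D4:**
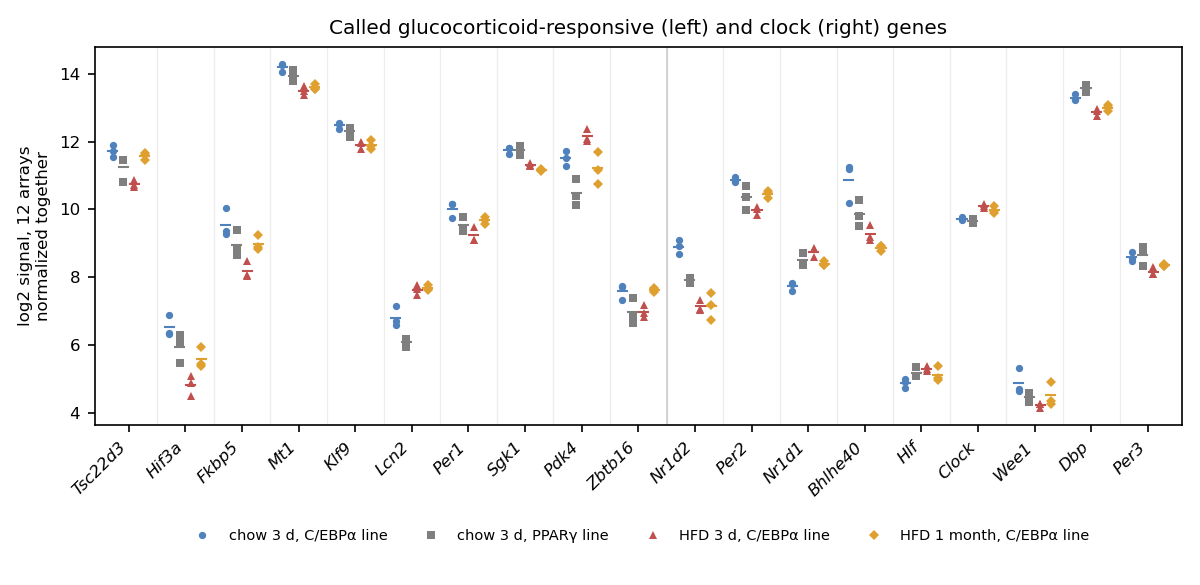
Points are log2 signals (vertical axis) of the 12 control arrays, normalized together, for the called members of the glucocorticoid-responsive list (left) and the remaining called clock genes (right), with group means of 3 arrays as short lines. The high fat arrays at 3 days lie below both chow groups for Fkbp5, Mt1, Klf9, Sgk1, Nr1d2, Dbp and Per3, and above them for Lcn2 and Pdk4.

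Of 26 macrophage markers tested, 5 were higher (19.2%) and 10 lower (38.5%), beside 23.4% and 17.8% of all genes. The median was -0.13, with 0.07 against the PPARγ line and 0.13 in the knockouts. It was -0.37 without the first high fat array, -0.33 without the second, 0.01 without the third and -0.08 without the second chow array. Their mean log2 signal was 9.23, 9.31 and 9.30 on chow and 9.07, 8.84 and 8.63 on high fat diet. Lyve1, a hyaluronan receptor of resident macrophages and lymphatic vessels, read 10.36, 10.26 and 10.52 on chow and 8.69, 8.41 and 8.35 on high fat diet. The difference was -1.90 ± 0.12 (adjusted p = 8.32e-05) and -0.97 against the PPARγ line. The haemoglobin scavenger receptor Cd163 differed by -1.28 and -0.74, and by -1.04 and 0.004 at a second, dim probe. Retnla, a secreted product of alternatively activated macrophages, differed by -0.70 and -0.45.

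For these 3 genes all high fat arrays lay below all 6 chow arrays. Of the 26 macrophage markers, 4 lay below all 6 chow arrays and 1 above, beside 9.62% and 14.4% of all genes. Clec10a, a lectin, differed by -2.43, with -2.34 between the chow groups and -0.10 against the PPARγ line. Adgre1, an adhesion receptor used as a macrophage marker, differed by -1.63, 1.23 and -0.86 at its 3 kept probes. The brightest of these differed by -1.32 between the chow groups and by -0.32 from the PPARγ line, without a call there. Csf1r, the receptor of macrophage growth factor, differed by -1.23 and 0.52 at its 2 kept probes, and the brighter by -1.38 between the chow groups and 0.15 against the PPARγ line, without a call there. Other macrophage markers went the other way. Folr2, a folate receptor, was higher by 0.66 and 0.69 at its 2 kept probes, and by 0.14 and 0.19 against the PPARγ line. Lyz2, a lysozyme, was higher by 0.79 at its brightest probe and differed by -2.20 and -1.63 at its other probes. Of 17 genes of antigen presentation, 3 were higher (17.6%) and 4 lower (23.5%), near the shares of all genes, and 1 was higher without the first or the second high fat array. H2-Aa, a class II chain, differed by -2.42 and -0.66, and the class I chain H2-K1 by -2.04 and -0.75. Lymphocyte markers overlapped between groups, with means of 6.36, 7.16 and 6.97 on chow and 6.68, 6.11 and 6.20 on high fat diet. Of 19 tested, 1 was higher (5.26%) and 4 lower (21.1%), beside 23.4% and 17.8% of all genes. The lower genes numbered between 0 and 7 when 1 array was left out, with 0 without the second high fat array and 7 without the first. Cd3e and Cd3d, chains of the T cell receptor complex, differed by -1.39 and -1.25, by -0.72 and -0.43 against the PPARγ line, and in the knockouts by 0.40 and 0.92. Without the second high fat array they were at -1.17 and -0.99 and were not called.

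Of 22 stress-response genes tested, 7 were higher (31.8%) and 8 lower (36.4%), beside 23.4% and 17.8% of all genes. Atf4, the transcription factor of the integrated stress response, differed by -1.10 and by -0.74 against the PPARγ line at its brighter probe, and by -0.26 at its other. Asns, the asparagine synthetase it controls, differed by -0.88 and -0.67 at its brightest probe. The dimmer Asns probes differed by -1.20 and -0.24, and by -0.12 and -0.11 against the PPARγ line. Ddit3, which encodes CHOP, was higher by 0.93 and 0.59 at its brighter probe and differed by 0.03 at the other. The chaperone Hspa5 differed by -2.40, with -2.24 between the chow groups and -0.17 against the PPARγ line, without a call there, while Calr, another chaperone, was higher by 1.35 and 0.63. Esr1, the oestrogen receptor, differed by -1.16 and -0.83 at its brighter probe, and the glucocorticoid receptor gene Nr3c1, whose probe was not well above background on high fat diet, was at least 1.76-fold lower (adjusted p = 0.000258), with a log2 difference of -0.23 against the PPARγ line, without a call.

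Branched chain amino acid breakdown had 2 higher (10.5%) and 6 lower (31.6%) genes of 19, beside 23.4% and 17.8% of all genes. Without 1 array, 0 or 1 was higher for each array left out. Acadsb, an acyl-CoA dehydrogenase of this pathway, differed by -1.66 and by -0.61 against the PPARγ line, and Mccc1, a carboxylase subunit, by -2.19 and -0.43, with -1.77 between the chow groups. Bckdhb, a subunit of the committed step, differed by -1.32 and -0.52, the latter without a call. Respiratory chain and citrate cycle genes had 5 higher (16.7%) and 6 lower (20%) of 30, near the shares of all genes, and 2 higher without the third high fat array or 1 without the second chow array. Of 27 cell cycle genes, 11 were higher (40.7%) and 4 lower (14.8%), beside 23.4% and 17.8% of all genes, with a median of 0.29 and -0.01 against the PPARγ line. Without the second high fat array 7 were higher, and without the first chow array the median was 0.18. The thymidine kinase Tk1 was higher by 1.28 and 0.60, and the helicase subunit Mcm2 by 0.97, with 0.14 against the PPARγ line. The replication clamp Pcna differed by -1.65 and 0.10. These are dim genes, whose differences are understated by the offset.

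Markers of other tissues moved with some arrays. None of 22 skeletal muscle markers was called in the main comparison, with means of 7.93, 7.52 and 8.97 on chow and 6.39, 6.86 and 9.70 on high fat diet. Without the third high fat array, the highest, 10 of the 22 were called lower, beside 2097 of 13088 genes in all. Their median moved from -0.45 to -1.61. The muscle signal overlapped between groups and varied within each, and it was much higher in the PPARγ-line chow arrays, where the median difference from the C/EBPα-line chow arrays was 2.38. Its part in the differences from the PPARγ line was not tested. The Y-linked genes Eif2s3y, Kdm5d and Uty differed by -1.25, -1.01 and -0.61, by -1.10, -0.78 and -0.52 between the chow groups, and by -0.16, -0.23 and -0.11 against the PPARγ line, without calls there. Xist lay between 4.46 and 5.18 in all 6 arrays, near the lower limit of the scale.

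Of the genes targeted in the series, Cebpa was higher on high fat diet by 1.02 ± 0.14 (adjusted p = 0.00163), with 1.74 between the chow groups and -0.75 against the PPARγ line. It read 8.46, 8.60 and 8.76 on chow and 9.46, 9.90 and 9.52 on high fat diet, without overlap. Pparg differed by 0.28 without a call (adjusted p = 0.0621), by -0.75 at a second probe, which was called, by 0.24 against the PPARγ line, and by -0.37 in the deposited values.

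Knockout mice on both diets lie in the same array sets and share no arrays with the controls. High fat diet against chow in the C/EBPα knockouts gave 4483 called genes of 13387 (33.5%), with 36 bright genes at least 2-fold higher (0.269%) and 269 lower (2.01%). Of the bright genes, 239 of the 335 lower ones in controls were also lower by this rule in knockouts, 71.3% of the first list and 88.8% of the second. For higher genes 20 were shared, 27.8% and 55.6%. Diet and array set are tied in the same way in these arrays. Cyp2e1 differed by -0.77, Me1 by -2.24, Serpina1b by 3.62 and Tnfrsf12a by 1.99 in the knockouts. Orm1 was at 0.31, Npr3 at 0.48 and Lcn2 at -0.13, below their values in controls.

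The difference of the diet effect between controls and knockouts was called for no gene by limma, with 1192 genes (8.90%) at an unadjusted p under 0.05 and a lowest adjusted p of 0.226. After 1 month on high fat diet, against the same chow arrays, 6492 of 13449 genes were called (48.3%), 209 bright genes at least 2-fold higher (1.55%) and 401 lower (2.98%). These mice were older and lie in another set. Serpina1b was then higher by 4.91, Npr3 by 3.02, Pmepa1 by 1.92 and Lep by 1.29, and Cyp2e1 differed by -2.96 and Me1 by -2.62. Ucp1 was at 0.21, Tsc22d3 at -0.15 and Pdk4 at -0.30.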

How the data were processed

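RNA of whole subcutaneous fat was labelled with biotin for Illumina BeadChips, per the labels' protocols. The deposited series table holds 1 linear intensity per probe and array for 45281 probes. The software behind them is not given in the sources used here. The authors had quantile-normalized each set of 6 arrays separately, as the values show: sorted intensities within a set differ by at most 0.705. A deposited table of signals was not used, because the names of its 96 columns match no sample's labels.

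The 6 arrays were quantile-normalized together, corrected with limma's normexp model for a background of 117 ± 4.93 estimated from the lower side of the intensity peak, and put on a log2 scale after adding 16. Probes above background (5% false positives) in at least 3 arrays were kept. The annotation gave 1 symbol to 34885 probes, several to 18, and did not list 10378. The probe with the highest mean signal was tested for each of 13394 genes. The other comparisons were normalized on their own arrays, with the same probe wherever it passed there. Tests used limma 3.58.1 in R 4.3.3 (lmFit, eBayes, two-sided, Benjamini-Hochberg, threshold 0.05). Bright means a mean log2 signal above 7.25, the median gene. On simulated data with 12389 genes, changes of 1.5 on the log2 scale were called in 96.0% (higher) and 93.8% (lower). Of the 196 genes called there, 10 were unchanged ones. How far these rates hold for the measured arrays, whose diets lie in different array sets, was not tested.

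Replicate numbers did not pair the arrays: deviations of same-numbered arrays correlated at -0.06, 0.05 and 0.07. The members and the 37 gene lists were chosen with earlier results of these data known. Named genes were the 15 with the largest differences per direction among bright 2-fold calls without overlap, the 10 per direction farthest from both chow groups, called list members and the 4 with the smallest adjusted p per list, Cebpa, Pparg and the sex-linked genes. The counts of genes beyond all 6 chow arrays were added after seeing the data. Alternatives changed the normalization, background, offset, filter, probe, arrays, variance model and thresholds. Single genes were followed by name through them for 115 of the named genes, so other called list members may also have lost their calls. The promoter windows are of RefSeq's GRCm38.p6.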

Additional observations from a re-analysis of the deposited data

How the results depend on the processing

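The deposited values without further normalization gave 10912 called genes, 76 higher and 10836 lower, and 5 and 1724 bright 2-fold ones, with the median of all genes at -0.70. Scaling each array to its median gave 4923 higher and 1794 lower, 113 and 291 bright ones, with a median of 0.22. Under cyclic loess 47.1% of calls were higher, against 56.8%. Without background correction there were 24 bright higher and 219 bright lower genes, with an offset of 50 there were 46 bright higher genes, without a filter 131 and 562, and over every probe 11284 calls (6202 and 5082) with 217 and 911 bright ones. A cut for bright genes at the upper quartile of signals gave 26 and 110, and a log2 difference of at least 1.5 gave 9 and 129. With both chow groups and the array set as a random block, 0 of 13983 genes were called in any of these counts, and 1831 had an unadjusted p under 0.05. Added after seeing the data, 46 bright higher and 186 bright lower genes did not overlap any of the 6 chow arrays, and 11 and 15 also differed by at least 1 from the PPARγ-line chow arrays. Leaving out each array gave 3938 to 4612 calls, 1969 to 2540 higher and 1762 to 2210 lower, and 62 to 87 and 287 to 359 bright ones; without the second high fat array the higher calls fell to 1969.

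The replicate number as a block gave 4757 calls, 2607 higher and 2150 lower, and 72 and 333 bright ones. Of the 115 genes followed by name, Cd3d lost its call under the block (limma, adjusted p = 0.0506). Over all genes, 4605 of the 5519 calls were kept.

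In the deposited values a common shift put the median gene at -0.70. Of the genes followed by name, these then fell below 0: Col4a1 -0.0001, Cox8b -0.10, Fdps -0.0281, Fgf21 -0.0022, Lcn2 -0.10, Pdk4 -0.0251 and Pparg -0.37. Their values say nothing about direction beyond that shift. A further 17 of the genes followed by name kept their direction and lost their call. Among the genes followed by name, calls lost without 1 array were those of Cd3d, Cd3e, Cidec, Cox7a1, Cox8b, Dbp, Fads1, Per3, Tkt and Ucp1. Their adjusted p values ran from 0.0514 to 0.0668. Other list members also lost calls, as the list counts given above show. The random block left no gene called, so all 5519 calls were lost, 112 of them among the genes followed by name. Pparg was at -0.11 over the mean of its probes. Of 333 list medians recomputed, 283 moved by less than 1 SD between replicates and 46 changed sign. Arrays limit all of this to 3 per group, and the low signal over background limits dim genes.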
